A study of Mus musculus with 2 samples.

Results

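Wfs1, Fibcd1, Mpped1, Pou3f1, Man1a and Lefty1 are genes used to mark the pyramidal neurons of the CA1 field of the hippocampus. These 6 genes, of 55536 annotated mouse genes, were followed at the level of the gene and of its transcripts. They were matched by symbol and gene identifier, and all 6 were found in every table. The set was chosen by its role as CA1 markers and with measured values of these data in view, namely TPM levels and the lower counts of CA1 markers in replicate 2, so differences between the libraries are given as descriptions without a test.

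Total RNA was sequenced from the hippocampus of male mice of the strain B6CASTF1/J, an F1 hybrid of C57BL/6J and CAST/EiJ parents, at 36 days of age. There was 1 group of 2 libraries, labelled biological replicates 1 and 2, each made from 300 ng of RNA with ERCC spike-ins, which are synthetic control RNAs. No treatment, mutation or transgene is named in the labels, and with 1 group no comparison between conditions can be made. Both samples carry the same donor identifier but different biosamples, and the labels give the tissue as a layer of hippocampus without naming the layer or the field.

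The hippocampus is built of the dentate gyrus and the CA fields, through which excitatory signals pass in turn, and CA1 pyramidal neurons form its main output to the subiculum and neocortex. Each field has its own set of enriched genes, which are used to tell the fields apart in tissue sections. The CA1 markers are also expressed outside CA1 to different extents: Wfs1 and Mpped1 are present in neocortex, and Man1a is a broadly expressed enzyme. In tissue RNA, fewer cells of a type and less RNA per cell cannot be told apart.

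The gene tables held 28665081 counts in replicate 1 and 29633695 in replicate 2 without the spike-ins, which took 0.421% and 0.408%. The 6 genes together took 0.0666% of gene counts in replicate 1 and 0.0570% in replicate 2. In replicate 2 all 5 listed choroid plexus genes had more scaled counts, with Ttr, which encodes the thyroid hormone carrier transthyretin, at 81 counts in replicate 1 and 4202 in replicate 2. The summed TPM of that list was 60.4 in replicate 1 and 263 in replicate 2. The part of choroid plexus RNA in any difference described here was not tested.

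Of the transcripts of these genes, those of Mpped1, which encodes a metallophosphoesterase, differed most between the deposited tables, and the choice fell on the start of the transcript. Mpped1 has annotated starts in different sequence surroundings, and the windows around 2 of them are printed because the tables assigned the gene's RNA to different ones. Each window runs from 250 bases before to 50 bases after a RefSeq start on GRCm38.p6, and capitals mark GGGCGG, the core of a GC box, on either strand. The upstream window lies on the plus strand at chr15:83779773-83780072 and belongs to Mpped1-201. The downstream window, on the plus strand at chr15:83784579-83784878, belongs to Mpped1-203.
Mpped1 upstream window: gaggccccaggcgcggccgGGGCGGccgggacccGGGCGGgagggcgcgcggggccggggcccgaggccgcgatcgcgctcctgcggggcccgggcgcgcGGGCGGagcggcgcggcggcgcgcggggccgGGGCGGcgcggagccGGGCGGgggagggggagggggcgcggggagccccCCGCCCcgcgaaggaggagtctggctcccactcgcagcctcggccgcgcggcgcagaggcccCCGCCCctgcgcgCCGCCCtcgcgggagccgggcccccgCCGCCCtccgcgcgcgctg
Mpped1 downstream window: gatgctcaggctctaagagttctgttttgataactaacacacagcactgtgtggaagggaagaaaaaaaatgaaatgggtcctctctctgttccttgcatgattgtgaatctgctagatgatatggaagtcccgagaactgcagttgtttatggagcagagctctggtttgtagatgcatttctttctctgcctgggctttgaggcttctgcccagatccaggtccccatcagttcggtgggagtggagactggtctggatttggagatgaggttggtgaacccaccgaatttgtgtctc
The upstream window had 89.3% G and C, 59 CpG dinucleotides and 9 GGGCGG motifs. The downstream window, 4806 bases further on, had 47.3% G and C, 3 CpG dinucleotides and no GGGCGG. Over all 32851 RefSeq windows of this length the median was 52.7% G and C with 7 CpG dinucleotides, and 35.7% of windows had a GGGCGG. The upstream window lay at percentile 99.997 of these windows for G and C content.

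Levels are given in TPM, an abundance unit that divides each count by transcript length and scales each library to the same total. Mpped1, on chromosome 15 (mm10, chr15:83779467-83858494, plus strand, 11 transcripts), was the highest of the 6 with 77.3 TPM in replicate 1 and 67.1 in replicate 2, a mean of 72.2 ± 7.21 (SD, n = 2). It was higher in replicate 1. Its paralogue Mpped2 had 15.03 and 15.82 TPM, so Mpped1 was the more abundant of the pair in both libraries.

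Wfs1 encodes wolframin, a membrane protein of the endoplasmic reticulum whose loss causes Wolfram syndrome, and lies at chr5:36966104-36989205 on the minus strand. It had 73.4 TPM in replicate 1 and 62.0 in replicate 2 (mean 67.7 ± 8.10, SD, n = 2). Its level was next to that of Mpped1, and their means differed by less than either SD.

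Fibcd1 encodes a membrane receptor with a fibrinogen-like domain that binds acetylated sugars, and lies at chr2:31813290-31846005 on the minus strand with 1 annotated transcript of 7 exons. It had 49.9 TPM in replicate 1 and 41.7 in replicate 2, a mean of 45.8 ± 5.81 (SD, n = 2). Both values lay below those of Wfs1. Of 10 listed genes for proteins with a fibrinogen domain, 5 reached 1 TPM in both libraries. Only Tnr, an extracellular matrix glycoprotein of the nervous system, was above Fibcd1, with 65.7 and 70.3 TPM.

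Man1a encodes a Golgi alpha-mannosidase that trims N-linked glycans, and lies at chr10:53904785-54076609 on the minus strand with 8 transcripts. It had 31.2 TPM in replicate 1 and 27.5 in replicate 2 (mean 29.4 ± 2.62, SD, n = 2). Its paralogue Man1a2 was higher, at 49.97 and 50.74 TPM. Man1b1, an enzyme earlier in the same trimming pathway, had 21.8 and 20.7 TPM, and Man1c1 had 8.22 and 9.41. Man1a was thus the second in level of these 4 mannosidases in both libraries.

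Pou3f1 encodes a POU-domain transcription factor that binds octamer motifs, and lies at chr4:124656807-124660655 on the plus strand in a single exon. It had 20.6 TPM in replicate 1 and 16.9 in replicate 2 (mean 18.7 ± 2.65, SD, n = 2). Among the class III POU factors Pou3f3 was higher in both libraries, with 28.3 and 26.8 TPM. Pou3f2 had 4.73 and 4.10 TPM and Pou3f4 1.72 and 1.74 TPM. The antisense gene Gm2164 overlaps Pou3f1 and had 43 and 35 counts, against 1590 and 1364 for Pou3f1. No source used here gives the strand setting of the counting, so how reads of the pair were divided is uncertain.

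Lefty1 encodes a secreted antagonist of Nodal signalling and lies at chr1:180935022-180938400 on the plus strand with 2 transcripts. It was the lowest of the 6, with 5.13 TPM in replicate 1 and 5.48 in replicate 2 (mean 5.31 ± 0.247, SD, n = 2) from 140 and 161 counts. It was the only one of these genes with a higher value in replicate 2. Its near copy Lefty2 had 1.26 and 0.55 TPM from 25.6 and 21.1 expected counts, and reads shared by these paralogues make the split between them uncertain.

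Of the 15 listed genes of the Nodal pathway, 9 reached 1 TPM in both libraries. The ligand Nodal, named here after its values were seen, had 3 counts in replicate 1 and 2 in replicate 2. The receptor gene Acvr1b had 33.7 and 35.0 TPM, and Smad4, the shared signal transducer, had 26.7 TPM in both libraries. Also named after their values were seen, the co-receptor genes Tdgf1 and Cfc1 had at most 5 counts and the transcription partner Foxh1 had 0 in both libraries. The ligand gene Gdf1 had 7.73 and 7.38 TPM from 198.59 and 198.84 expected counts. These are not whole numbers, so some reads were divided between Gdf1 and other genes, and its level is uncertain to that extent. Both ligand and receptor genes of the pathway thus differed widely in level.

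**Figure D1:**
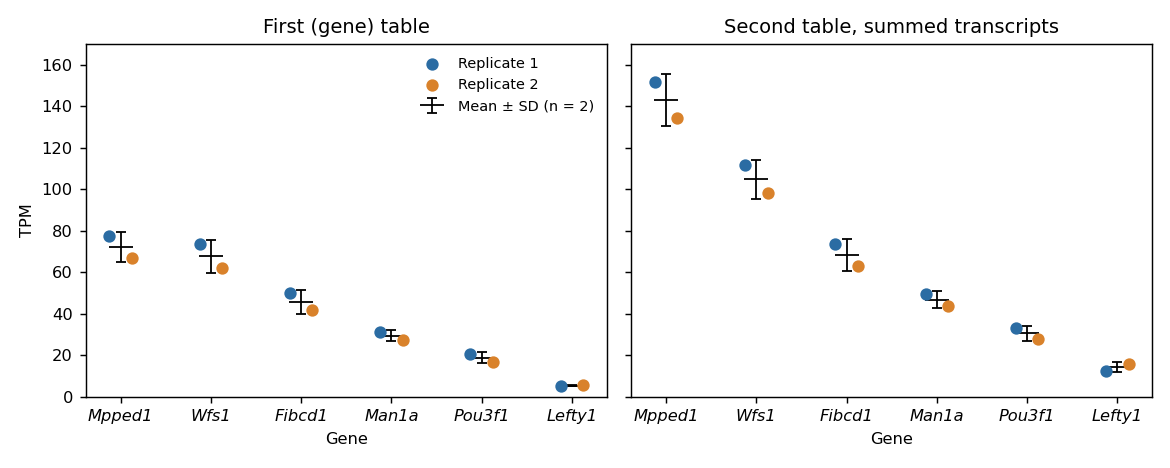
Level of each CA1 marker gene in TPM (vertical axis) in replicates 1 (blue) and 2 (orange), with the mean and SD of the 2 libraries in black; the left panel is the gene table and the right panel the sum over transcripts in the second transcript table. The order is the same in both panels, and Lefty1 alone is higher in replicate 2.

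The order Mpped1, Wfs1, Fibcd1, Man1a, Pou3f1 and Lefty1 was the same in both libraries. Mpped1 and Wfs1 were the only neighbours in this order whose values overlapped between libraries. Among the 12733 protein-coding genes with at least 1 TPM in both libraries, Mpped1 lay at percentile 90.3, Wfs1 at 89.6 and Fibcd1 at 83.2 by mean TPM. Man1a lay at percentile 71.8, Pou3f1 at 57.4 and Lefty1 at 21.8. The CA1 marker set thus ranged from genes near the top of the expressed genes to Lefty1 well below their middle.

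For each gene the other protein-coding gene closest to it in log2(TPM + 1) over the 2 libraries was looked up. Cnr1, the cannabinoid receptor gene, was closest to Mpped1 with 77.4 and 67.7 TPM. Sept4 was closest to Wfs1 (73.0 and 62.6 TPM) and Plec to Fibcd1 (49.5 and 41.8 TPM). Abcf1, Yipf5 and Yes1 were closest to Man1a, Pou3f1 and Lefty1. The distances were between 0.011 and 0.018 on the log2 scale, and likeness over 2 libraries amounts to a like level and a like ratio.

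The comparison of the libraries used expected counts scaled by TMM, a method that balances libraries on the bulk of their genes, with exact 95% intervals for counting error only. Wfs1 had 5348 counts in replicate 1 and 4635 in replicate 2, Fibcd1 had 4771 and 4181, and Mpped1 had 4740 and 4270. Man1a had 2511 and 2277 counts and Pou3f1 1590 and 1364. All 5 of these genes had fewer counts in replicate 2, although that library was the deeper of the pair.

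Wfs1 was 1.19-fold higher in replicate 1 (interval 1.14 to 1.24). Fibcd1 was 1.17-fold higher (1.13 to 1.22) and Mpped1 1.14-fold higher (1.10 to 1.19). Pou3f1 was 1.20-fold higher (1.12 to 1.29) and Man1a 1.14-fold higher (1.07 to 1.20). These 5 ratios lay close together, and their intervals overlapped. Lefty1 stood on the other side, 1.12-fold higher in replicate 2 with an interval of 0.885 to 1.41 that contains 1, so no difference was detectable at its depth.

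By interval, 5 of the 6 genes were lower in replicate 2 and 0 were higher, where 9.83% of the 18270 genes with a mean count of at least 10 were lower and 11.5% were higher. None of the 6 differed by 1.5-fold or more, as 7.25% of all those genes did. The median log2 ratio of the 6, replicate 2 over replicate 1, was -0.21, against -0.0025 over all those genes. With a minimum count of 100, 12.2% of genes were lower by interval, and with no minimum 6.87% were. The genes were proposed with their difference between the libraries known. The shares of all genes are therefore given beside the counts, and nothing is read from them. Each library is 1 sample, so a difference between them cannot be told apart from the spread between animals or dissections.

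**Figure D2:**
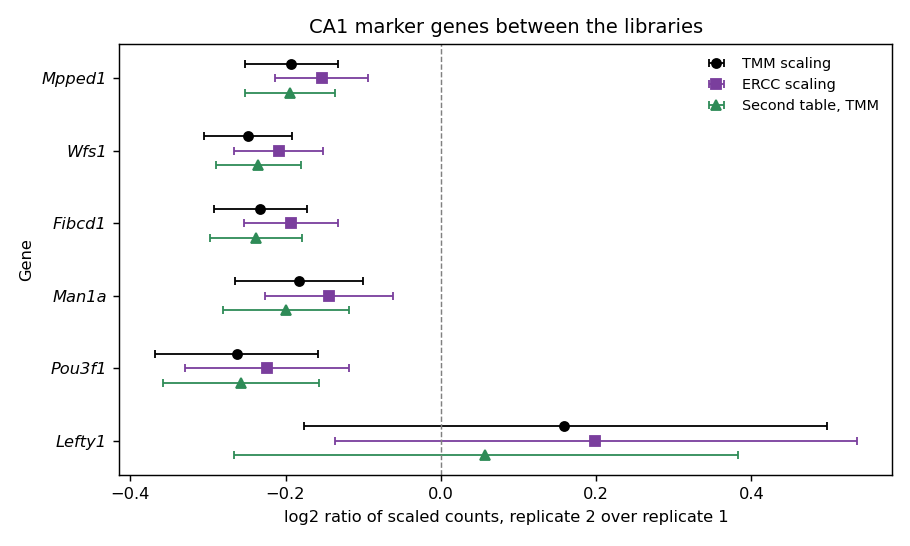
Log2 ratio of scaled counts, replicate 2 over replicate 1 (horizontal axis), for each CA1 marker gene (vertical axis) with exact 95% intervals for counting error, scaled by TMM (black), by ERCC counts (purple) and in the second transcript table by TMM (green). The intervals of 5 genes lie below 0 under each scaling, and those of Lefty1 contain 0.

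Ratios between the genes are given next. Wfs1 had 1.47 times the TPM of Fibcd1 in replicate 1 and 1.49 times in replicate 2, a change of 1.01-fold. Among the 5 genes other than Lefty1 the largest change of a ratio was 1.08-fold, for Pou3f1 over Man1a. Ratios with Lefty1 changed by 1.21-fold to 1.31-fold, while the TPM of single genes changed by 1.07-fold to 1.22-fold. Proportions thus changed less than most levels only where Lefty1 was left out. The summed TPM of all 6 was 257.5 in replicate 1 and 220.6 in replicate 2.

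RefSeq promoter windows were matched for 4 of the 6 genes, Wfs1, Fibcd1, Mpped1 and Man1a. The windows of Wfs1 (minus strand, chr5:36988933-36989232) and Fibcd1 (minus strand, chr2:31845956-31846255), also from GRCm38.p6, are printed because this pair kept the closest ratio between the libraries. The ratio of Mpped1 over Man1a changed by 1.02-fold, and a link between promoter sequence and these ratios was not tested. Capitals mark GGGCGG and CCAAT on either strand, which did not overlap.
Wfs1 window: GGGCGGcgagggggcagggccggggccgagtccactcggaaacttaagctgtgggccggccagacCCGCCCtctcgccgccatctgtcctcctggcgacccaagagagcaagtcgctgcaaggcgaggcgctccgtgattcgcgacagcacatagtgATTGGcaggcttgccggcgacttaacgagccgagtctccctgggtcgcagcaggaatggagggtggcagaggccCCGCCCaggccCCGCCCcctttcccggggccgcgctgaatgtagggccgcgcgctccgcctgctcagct
Fibcd1 window: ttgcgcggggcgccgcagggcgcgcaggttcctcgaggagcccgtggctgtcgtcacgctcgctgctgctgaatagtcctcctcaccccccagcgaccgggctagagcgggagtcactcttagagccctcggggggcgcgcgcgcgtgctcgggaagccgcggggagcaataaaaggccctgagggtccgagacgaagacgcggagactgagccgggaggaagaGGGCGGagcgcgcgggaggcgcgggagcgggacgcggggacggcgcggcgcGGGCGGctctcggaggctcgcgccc
The Wfs1 window had 70.0% G and C, 30 CpG dinucleotides, 4 GGGCGG and 1 CCAAT. Wfs1-201 begins at chr5:36989205, upstream of the RefSeq start at 36988982. Its first 272 bases (chr5:36988934-36989205) lie in this window, so most of the 300 printed bases are annotated exon of that transcript. The Fibcd1 window had 74.3% G and C, 46 CpG dinucleotides and 2 GGGCGG. The Man1a window (minus strand, chr10:54075688-54075987) had 72.7% G and C, 38 CpG dinucleotides, 2 GGGCGG and 1 CCAAT. Searched on both strands, CCAAT was in 37.4% of all RefSeq windows, TATAAA in 13.6% and ATGCAAAT in 1.74%. Neither TATAAA nor ATGCAAAT, the octamer, was in any of the 5 matched windows, and CCAAT was in neither Mpped1 window.

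Other genes that mark CA1 did not all follow the same direction. Of 6 further CA1 markers, 2 were lower in replicate 2 by interval, 2 were higher and 2 were neither, with a median log2 ratio of -0.12. Among the lower ones was Ccn3 (53.6 and 41.2 TPM), named after its values were seen, which encodes a matricellular protein. The higher ones were the transcription factor gene Zbtb20 (125 and 151 TPM) and the calcium-binding protein gene Calb1 (60.5 and 72.1 TPM), both of which dentate granule cells also express. The part of granule cells in these values was not tested.

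Markers of the neighbouring fields were set beside them on the same scaled counts. By these counts all 8 dentate granule markers were higher in replicate 2, with a median log2 ratio of 0.33. Among them were Prox1, a homeobox gene needed by granule cells, at 32.9 and 45.1 TPM, and Rfx3 at 50.2 and 57.7 TPM. By TPM the dentate marker Stxbp6, named after its values were seen, was not higher in replicate 2 (31.2 and 30.6). The summed TPM of the 6 genes was 1.40 times that of the dentate list in replicate 1 and 1.00 times in replicate 2. Of 5 CA3 markers 1 was lower and 1 higher, the latter being Cpne4 (46.9 and 48.5 TPM). Of 5 CA2 markers 0 were lower and 2 higher, among them Pcp4 (106 and 114 TPM). The difference between these lists and the 6 genes was not tested.

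Lists from outside the CA fields also differed between the libraries. Of 5 subiculum markers 3 were lower in replicate 2 and 0 higher, with a median log2 ratio of -0.26. Of 4 neocortical markers 3 were lower and 0 higher, including Fezf2, a factor of deep-layer projection neurons, at 21.2 and 16.2 TPM. The summed TPM of the 6 genes over that of the neocortical list was 4.35 in replicate 1 and 4.40 in replicate 2. Summed TPM of the neocortical list was 59.3 in replicate 1 and 50.1 in replicate 2. How much of the RNA of the 6 genes came from neocortex or subiculum was not tested.

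General genes of excitatory neurons gave 2 lower, 2 higher and 1 neither, with a median log2 ratio of -0.01. Camk2a, a kinase of excitatory synapses, had 1347 and 1414 TPM, and Nrgn, which binds calmodulin, had 636 and 596. Of 4 interneuron genes 3 were lower, among them Sst (174 and 148 TPM). Of 4 oligodendrocyte genes 3 were lower, and the myelin gene Mbp, the highest of the list, had 723 and 729 TPM with an interval that contained 1. Of 4 astrocyte genes 2 were higher, and of 4 microglial genes 0 were lower or higher. Of 4 endothelial genes 1 was lower and 1 higher.

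**Figure D3:**
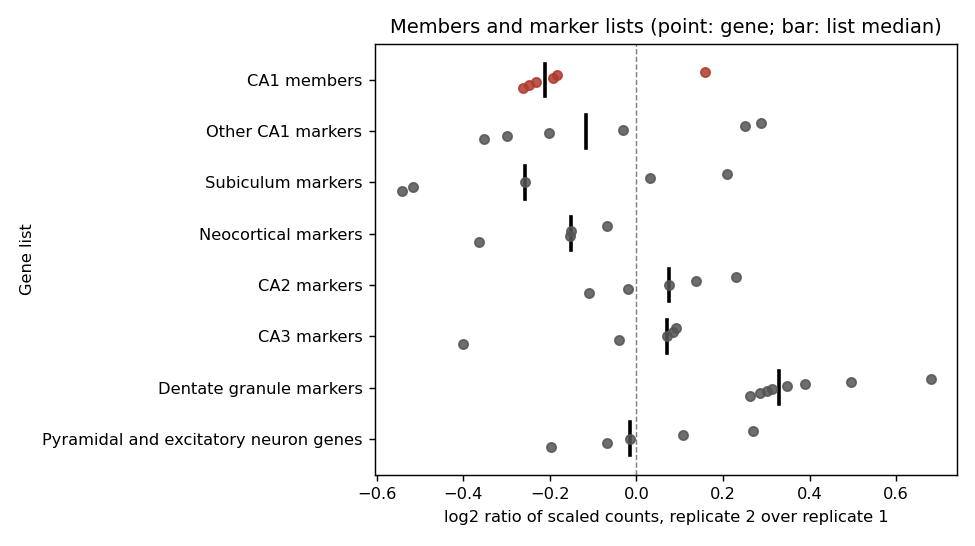
Log2 ratio of scaled counts, replicate 2 over replicate 1 (horizontal axis), for the 6 CA1 marker genes in red and for genes of other neuronal marker lists in grey, with list medians as black bars. The CA1 genes have a median of -0.21 with Lefty1 to the right of 0, and all 8 dentate granule markers lie to the right of 0.

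Genes that work in the same processes were counted as well. Of 11 genes of Wfs1 and the endoplasmic reticulum stress response, Wfs1 was the only one lower in replicate 2 by interval, and 6 were higher. Over all genes with enough counts 9.83% were lower and 11.5% higher. The chaperone gene Hspa5 had 130 and 201 TPM and was 1.61-fold higher in replicate 2 (interval 1.56 to 1.66). Sel1l, of the degradation pathway of that compartment, had 74.3 and 80.8 TPM and was 1.05-fold higher (1.02 to 1.09). Choroid plexus genes were higher in the same library, and their part in these values was not tested.

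Of 8 N-glycan trimming enzymes 2 were lower in replicate 2, including Man1a, and 1 was higher, Man1c1, at 1.17-fold (interval 1.06 to 1.29). Of the 4 class III POU factors 2 were lower, Pou3f1 and Pou3f2, and 0 higher. Mpped2 had a ratio of 0.981 with an interval of 0.875 to 1.10. Of 7 fibrinogen-domain genes with enough counts 1 was lower, Fibcd1 itself, and 2 were higher, Tnr and Tnc. In the Nodal pathway 10 genes had enough counts, of which 0 were lower and 3 were higher. The intervals of Pou3f3 (0.925 to 1.01) and Pou3f4 (0.776 to 1.37) contained 1. Man1a, Mpped1, Fibcd1 and Pou3f1 each had relatives whose interval contained 1 or lay above it. Of all 18270 genes with enough counts, 9.83% were lower and 11.5% higher by interval, so nothing is read from these relatives.

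Each library had 2 transcript tables. The first, made from reads aligned to transcripts, gives, for every transcript, its percentage of the gene's TPM. The second was made from the reads of 1 FASTQ file and an index, and its shares were computed from its TPM. Fibcd1 and Pou3f1 have 1 transcript each. For the other 4 genes the largest difference of a share between libraries was 2.43 to 3.53 percentage points in the first table and 4.03 to 14.0 in the second. Between the tables a share differed by up to 24.0 (Man1a), 24.7 (Wfs1), 34.2 (Lefty1) and 87.3 points (Mpped1). The libraries were thus closer to each other than the tables were.

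In the first table Mpped1-201 took 87.2% of Mpped1 TPM in replicate 1 and 88.2% in replicate 2. In the second table it took 0.805% and 0.0289%. Mpped1-203 had 0% in both libraries of the first table and 44.0% and 44.2% in the second. The tables thus named different transcripts as the main one, with close values in both libraries.

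Mpped1-201 and Mpped1-203 share 3180 exon bases and the same coding sequence of 978 bases. They differ in the exon at the start, of 85 bases in Mpped1-201 (chr15:83780023-83780107) and 101 bases in Mpped1-203 (chr15:83784829-83784929), both untranslated. The exon of 85 bases had 87.1% G and C and 17 CpG dinucleotides, and that of 101 bases 50.5% and 1. Reads in the shared bases fit both transcripts, so few bases can tell them apart. In the first table the deposited posterior SD of the Mpped1-203 count was 76.3 and 82.1 counts in replicates 1 and 2.

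Mpped1-202 begins 556 bases before Mpped1-201, outside the printed window, and Mpped1-208 begins between them. Summed over these 3 most upstream transcripts, the first table gave 89.9% and 90.1% of Mpped1 TPM. The second table gave 7.09% and 1.52% for the same transcripts. In estimated counts these 3 transcripts had 93.3% and 95.2% in the first table and 3.13% and 0.530% in the second. The gene's total count hardly differed, being 1.07 and 1.06 times as high in the second table as in the first. Which start was used in these tissues cannot be told apart from these tables.

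Mpped1-204 is annotated as a target of nonsense-mediated decay, the removal of transcripts with early stop codons. It has another start and lacks a coding exon of 226 bases (chr15:83836273-83836498). It took 5.68% and 3.23% in the first table and 27.5% and 28.2% in the second. Mpped1-207, a transcript of 659 bases with an internal start, took 0.32% and 0.70% in the first table and 20.3% and 24.8% in the second. In the second table its counts were 2.94% and 3.59% of the gene's, since TPM weights short transcripts more.

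**Figure D4:**
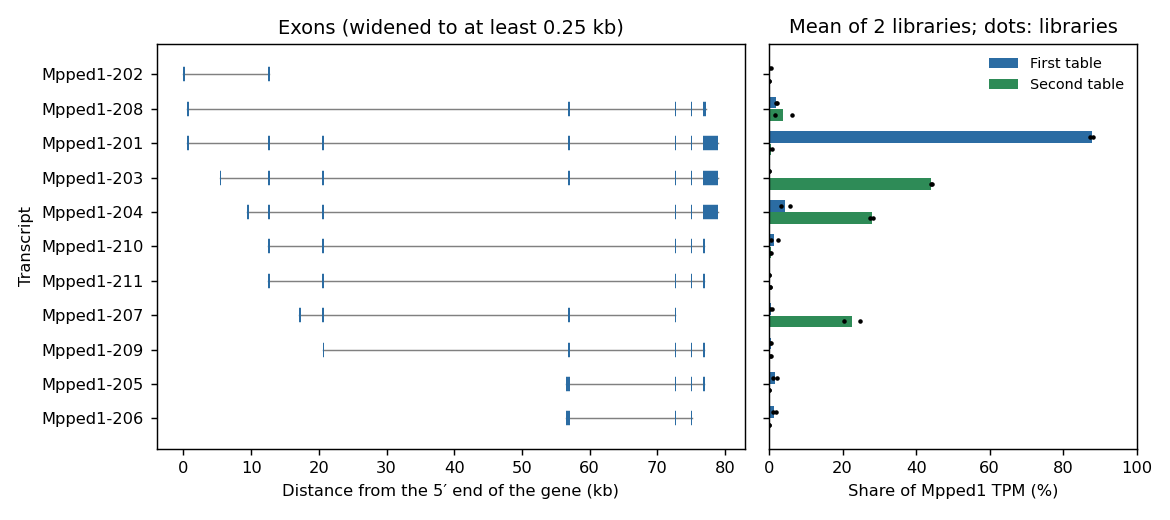
Left, exons (blue blocks) of the 11 annotated Mpped1 transcripts by distance from the 5′ end of the gene in kb; right, share of Mpped1 TPM in percent in the first (blue) and second (green) transcript table, with bars for the mean of 2 libraries and dots for each library. Mpped1-201 takes 87.7% in the first table and 0.417% in the second, where Mpped1-203 takes 44.1%.

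For Wfs1 the tables differed in the share of a shorter coding transcript. Wfs1-202 took 28.8% and 28.7% of Wfs1 TPM in the first table and 1.47% and 6.52% in the second. Wfs1-201, the full-length transcript, took 71.3% and 68.9% in the first table and 98.5% and 90.8% in the second. Wfs1-201 was therefore the main transcript in both tables and both libraries.

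Wfs1-202 lacks 228 coding bases, or 76 codons, at the edge of an exon of Wfs1-201, at chr5:36968451-36968678 on the minus strand of mm10. The stretch is printed in the sense of the gene, from the GENCODE M21 transcript, because it is what separates the coding sequences of 2670 and 2442 bases. Capitals mark its outermost bases, GT and AG. Introns commonly have these letters at their ends, but both transcripts have 8 exons. The stretch is therefore not an intron cut from within an exon of Wfs1-201.
Wfs1-201 stretch absent from Wfs1-202: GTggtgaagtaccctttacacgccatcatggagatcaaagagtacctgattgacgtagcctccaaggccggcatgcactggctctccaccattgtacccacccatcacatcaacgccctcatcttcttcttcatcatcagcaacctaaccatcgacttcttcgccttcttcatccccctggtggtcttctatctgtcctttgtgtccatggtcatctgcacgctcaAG
The transcripts also differ by 272 bases at the start and 3 at the end. The deposited posterior SD of the Wfs1-202 count was 152 in replicate 1, where the count was 1382, and 168 in replicate 2, where it was 1221.

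Man1a-201 took 60.7% and 57.2% of Man1a TPM in the first table and 50.7% and 49.4% in the second. Man1a-203 took 1.79% and 4.45% in the first table and 29.1% and 25.1% in the second. It has the same coding sequence of 1965 bases as Man1a-201 and ends 2225 bases earlier. Near the start, 87 untranslated bases are only in Man1a-201 and 22 only in Man1a-203. The tables thus differed on transcripts that are unlike in both untranslated ends. Man1a-208, with another start, took 17.6% and 16.4% in the first table and 0.189% and 3.39% in the second. Transcripts of Man1a that are not annotated as coding took 19.9% and 22.0% in the first table and 20.0% and 22.1% in the second. The tables thus gave close shares for the class and different shares within the coding transcripts.

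Lefty1-201, the coding transcript, took 81.6% and 84.7% of Lefty1 TPM in the first table and 55.9% and 42.0% in the second. Lefty1-202, annotated as a retained intron, held the rest, with 18.4% and 15.3% in the first table and 44.1% and 58.0% in the second. In estimated counts Lefty1-202 had 9.38 and 8.75 in the first table and 20.5 and 34.6 in the second. The posterior SD of the counts of the first table was 5.01 and 6.59. The larger share of Lefty1 TPM thus changed transcript between the libraries of the second table, on low counts. Of the Lefty1 counts of that table Lefty1-201 had 86.9% and 79.2%, since TPM weights short transcripts more.

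**Figure D5:**
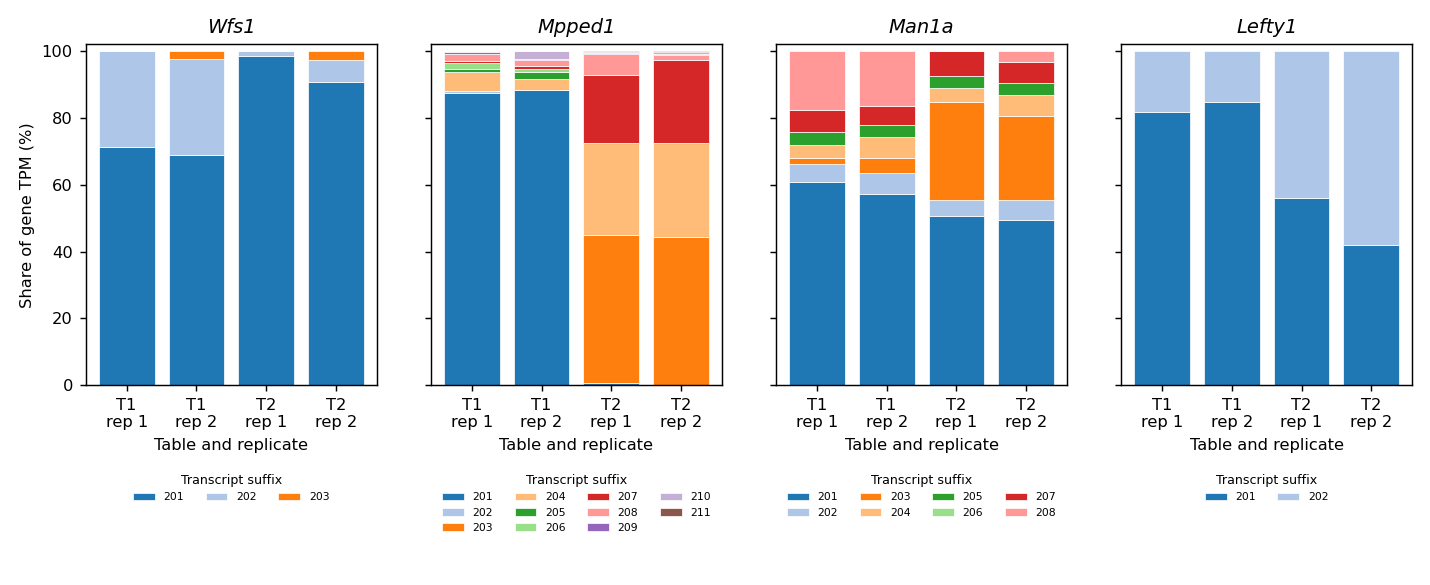
Share of gene TPM in percent (vertical axis) of each annotated transcript, named by its suffix, for Wfs1, Mpped1, Man1a and Lefty1 in the first (T1) and second (T2) transcript table and in replicates 1 and 2. Mpped1 is mostly Mpped1-201 in T1 and Mpped1-203, Mpped1-204 and Mpped1-207 in T2, and in T2 Lefty1-201 goes from 55.9% in replicate 1 to 42.0% in replicate 2.

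Summed over transcripts, the second table gave higher TPM for all 6 genes. Mpped1 had 152 and 134 TPM, Wfs1 111 and 98.2, and Fibcd1 73.8 and 62.8. Man1a had 49.6 and 43.9 TPM, Pou3f1 33.2 and 27.9, and Lefty1 12.5 and 15.9. The order of the genes was that of the first table. The ratio of the tables had a median of 1.67 and 1.70 over all protein-coding genes in replicates 1 and 2. It was 1.96 and 2.00 for Mpped1 and 2.44 and 2.90 for Lefty1, while those of the other 4 genes were between 1.48 and 1.65.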

How the data were processed

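Total RNA-seq tables of 2 libraries from the hippocampus of B6CASTF1/J mice were used. Per the file headers, the authors' gene table holds expected counts and TPM. Per the file headers, the authors' first transcript table adds each transcript's percent of its gene's TPM. The second transcript table, also deposited, gives an estimated count and TPM per transcript. The deposited gene and transcript tables further hold posterior standard deviations. According to a deposited note, the reference was mm10 with GENCODE M21, the first tables derive from a transcriptome alignment and an index, and the second from a FASTQ file and an index. For programs, versions, aligner and strand setting, each is not given in the sources used here.

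The authors' TPM is scaled over all entries of a table. Counts were scaled by the TMM of edgeR 4.0.16 in R 4.3.3, without ERCC rows. Ratios between libraries had 0.5 added to each count and carry exact 95% Clopper-Pearson intervals from scipy 1.17.1. Intervals cover counting error only, and the labels name no molecular identifiers, without which reads are not independent molecules. They were used for 18270 genes with a mean count of at least 10, and genes were counted as lower or higher where the interval excluded 1. Nothing in the labels names separate animals for the replicates beyond their biosamples, and no p-value was computed. The procedure was tested on simulated data with counting error only. Spread between animals or dissections was not part of the simulation.

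The genes and the 19 gene lists were chosen with earlier results of these data known. Named are the 6 genes, the 2 highest genes of each list by mean TPM, where described, paralogues, and the nearest gene by level. Nodal, Tdgf1, Cfc1, Foxh1, Gdf1, Ccn3, Stxbp6 and Tnc were named after their values were seen. Some genes of the lists are not reported here by name. Alternatives were other scalings (total counts, the size factors of DESeq2 1.42.0, ERCC counts), the second table, TPM ratios, TPM rescaled over protein-coding genes, posterior means, other count minimums and each library left out. Promoter windows came from RefSeq (GRCm38.p6).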

Additional observations from a re-analysis of the deposited data

How the results depend on the processing

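The count of 5 genes lower in replicate 2 by interval and the median log2 ratio of the 6 genes kept their direction under every scaling tried and in the second table, as did the log2 ratio of each gene. The main transcript by TPM did not: in the second table it was Mpped1-203 for Mpped1 and, by the mean of the libraries, Lefty1-202 (51.0%) for Lefty1. In estimated counts of the second table Lefty1-201 remained the larger, with 86.9% in replicate 1 and 79.2% in replicate 2. The share of all genes that were lower was 10.7% by total counts, 7.93% by DESeq2 size factors and 5.86% by ERCC counts, and of those higher 10.7%, 13.7% and 17.3%. Wfs1's log2 ratio was -0.18 as a ratio of second-table TPM, an alternative chosen after seeing the data. Mean TPM was higher in the second table, at 105 for Wfs1, 68.3 for Fibcd1, 143 for Mpped1, 30.5 for Pou3f1, 46.8 for Man1a and 14.2 for Lefty1. Rescaled over protein-coding genes it was 154, 104, 164, 42.5, 66.6 and 12.1 in the same order, since fewer entries share the total. The share of Wfs1-201 was 94.7% in the second table, of Mpped1-201 0.417%, of Man1a-201 50.03% and of Lefty1-201 49.0%. With posterior means it was 83.4% for Mpped1-201 and 79.6% for Lefty1-201. The cause of the differences between the tables was not tested. Leaving out a library leaves no ratio between libraries and gives each level as the other library's value. No paired analysis was possible because there is 1 group. Depth limits Lefty1 most.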
